A study of Drosophila melanogaster with 3 samples.

Results

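The genes described here encode the translation initiation factors (eIF), the translation elongation factors (eEF) and the aminoacyl-tRNA synthetases of Drosophila melanogaster. They were taken by name from the RefSeq annotation of the dm6 assembly: every protein-coding gene whose symbol starts with eIF or eEF, or consists of a three-letter amino acid code followed by RS or RS-m. The rule found 84 of 13944 protein-coding genes, namely 52 translation factors, 17 cytosolic synthetases and 15 mitochondrial synthetases, whose symbols end in -m. The name rule itself uses no measured value, and the classes follow the symbol alone, not where each enzyme acts.

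The study mapped the chromatin bound by the protein of the gene CG14710, by chromatin immunoprecipitation followed by sequencing (ChIP-seq). The embryos came from a stable transgenic fly line in which GFP, the green fluorescent protein, is fused to the C-terminal end of CG14710. The precipitation used an antibody against GFP. There was 1 group, with 3 biological replicates of whole embryos, males and females pooled, aged 0 to 14 hours. No embryos without the tag were analysed here, and whole embryos mix all cell types and stages of that span. Each replicate list and the list on the pooled replicates held 30000 peaks. A further list, kept by the authors after thresholding on the irreproducible discovery rate (IDR), held 9194. The signal of a peak is the authors' value, on a scale that is not stated. A gene was called bound when the summit of an IDR peak lay within 500 bp of one of its transcription start sites (TSS). The lowest IDR signal, 263, was also that of the pooled peak of rank 9194. Every bound gene among the 84 had the same rank and signal in both lists. A bound gene need not have a peak in every replicate: 56 of the 59 bound had a promoter summit in all 3.

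Protein synthesis starts when initiation factors load the initiator tRNA and the small ribosomal subunit onto a capped mRNA. Elongation factors then deliver charged tRNAs and move the ribosome along. Synthetases attach each amino acid to its tRNA in the cytosol and in mitochondria, and in animals their genes lie in the nucleus. Many genes of this kind are transcribed in nearly all cells from promoters that carry the word of the DNA replication-related element factor (DREF), and some ribosomal protein and translation factor genes start at a pyrimidine-rich TCT initiator.

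The sequences below show the ground under the summits that the results turn on: 7 factor promoters with a DREF word or its ATCGAT core, 5 strong or typical summits of factors and synthetases with AT-rich sequence, and the GlnRS promoter. Each is 121 bases long, from 60 bases before to 60 after the IDR summit, from RefSeq's dm6 genome, and reads 5′ to 3′ on the gene's strand. For GlnRS, which had no IDR summit, the centre is the median of the 3 replicate summits. Capitals mark the words searched on either strand: DREF (TATCGATA), its core (ATCGAT), motif 1 (GGTCACACT), the ZIPIC word (CAGGGCTG) and the E-box (CACGTG). The core is part of the DREF word, so the matches overlap.
eIF4H1 (chrX:16448484-16448604, plus strand): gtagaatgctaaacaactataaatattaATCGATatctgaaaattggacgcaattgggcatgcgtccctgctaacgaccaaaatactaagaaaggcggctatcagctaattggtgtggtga
eIF2alpha (chrX:16446977-16447097, minus strand): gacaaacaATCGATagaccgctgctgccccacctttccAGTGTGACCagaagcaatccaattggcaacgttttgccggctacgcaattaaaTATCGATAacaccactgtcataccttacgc
eIF5 (chrX:15992285-15992405, minus strand): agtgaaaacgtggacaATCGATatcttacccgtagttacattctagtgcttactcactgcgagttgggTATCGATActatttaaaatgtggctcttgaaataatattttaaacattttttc
eIF1 (chr3L:3223016-3223136, plus strand): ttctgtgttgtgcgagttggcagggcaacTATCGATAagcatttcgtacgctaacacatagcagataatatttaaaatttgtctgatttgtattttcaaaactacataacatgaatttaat
eEF1gamma (chr3R:29220070-29220190, plus strand): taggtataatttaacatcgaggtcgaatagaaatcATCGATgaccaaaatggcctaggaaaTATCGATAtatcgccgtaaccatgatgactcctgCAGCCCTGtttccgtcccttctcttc
eIF2A (chr3L:21824840-21824960, plus strand): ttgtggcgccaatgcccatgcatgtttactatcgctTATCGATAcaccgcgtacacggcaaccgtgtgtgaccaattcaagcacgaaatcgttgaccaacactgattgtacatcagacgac
eIF3a (chr3R:4433894-4434014, minus strand): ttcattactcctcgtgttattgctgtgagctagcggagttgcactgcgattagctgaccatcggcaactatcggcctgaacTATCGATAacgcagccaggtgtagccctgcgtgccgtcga
eIF4EHP (chr3R:24109134-24109254, minus strand): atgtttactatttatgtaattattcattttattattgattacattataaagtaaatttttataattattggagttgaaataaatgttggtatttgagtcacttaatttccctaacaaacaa
IleRS (chr3L:22288424-22288544, plus strand): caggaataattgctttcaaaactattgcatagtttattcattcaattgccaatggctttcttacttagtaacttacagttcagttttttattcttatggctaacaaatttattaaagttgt
ThrRS (chr2L:12103517-12103637, plus strand): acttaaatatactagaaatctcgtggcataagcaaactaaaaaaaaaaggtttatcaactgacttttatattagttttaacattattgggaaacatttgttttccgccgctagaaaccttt
ProRS-m (chr3L:2651906-2652026, minus strand): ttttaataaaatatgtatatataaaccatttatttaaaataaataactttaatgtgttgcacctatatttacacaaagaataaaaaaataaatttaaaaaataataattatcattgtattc
AspRS-m (chr2L:16826958-16827078, plus strand): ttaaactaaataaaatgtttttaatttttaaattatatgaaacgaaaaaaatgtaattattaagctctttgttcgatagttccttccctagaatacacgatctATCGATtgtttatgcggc
GlnRS (chr3R:25265749-25265869, minus strand): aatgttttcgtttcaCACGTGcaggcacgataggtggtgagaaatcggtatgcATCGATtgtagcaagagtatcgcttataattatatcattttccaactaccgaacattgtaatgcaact

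Of the 84 members, 59 were bound, or 70.2% (95% Wilson interval 59.8 to 79.0). Over all protein-coding genes 42.6% were bound. Among the translation factors 35 of 52 were bound, or 67.3% (53.8 to 78.5). Among the cytosolic synthetases 16 of 17 were bound, or 94.1% (73.0 to 99.0). Among the mitochondrial synthetases 8 of 15 were bound, or 53.3% (30.1 to 75.2), and this interval holds the value of all protein-coding genes.

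The same order was seen in each replicate when its 9194 strongest peaks were used. Factors were bound at 67.3%, 71.2% and 71.2% in replicates 1, 2 and 3 (mean 69.9% ± 2.22, SD, n = 3). Cytosolic synthetases were bound at 94.1%, 100% and 100% (98.0% ± 3.40, SD, n = 3). Mitochondrial synthetases were bound at 60%, 46.7% and 46.7% (51.1% ± 7.70, SD, n = 3). The cytosolic set was the highest and the mitochondrial set the lowest in all 3 replicates, and the values of the 3 classes did not overlap. Protein-coding genes as a whole stood at 41.9%, 43.3% and 41.0% (42.0% ± 1.18, SD, n = 3).

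**Figure D1:**
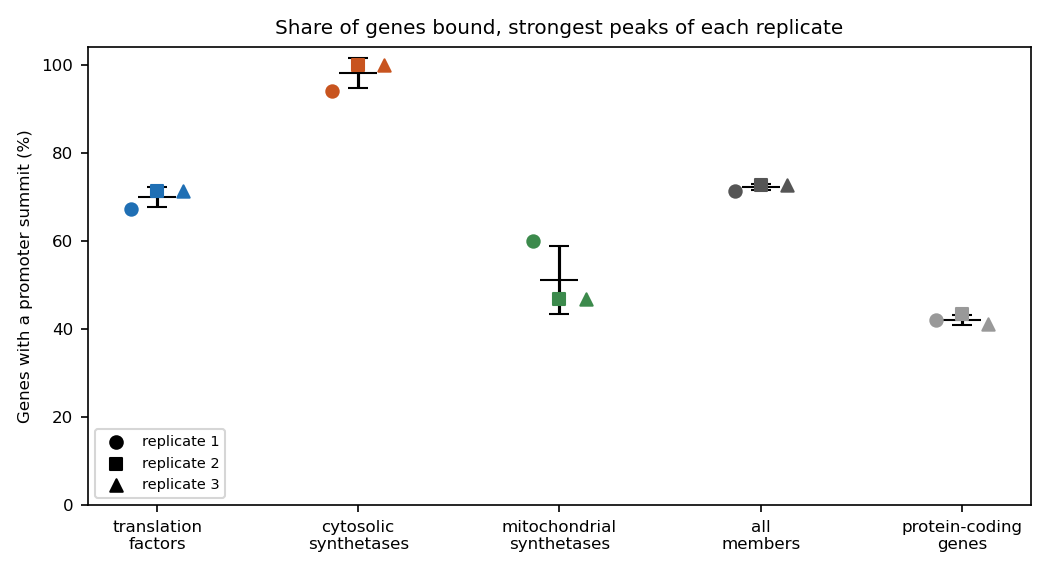
Share of genes with a promoter summit (vertical axis, percent) among the 9194 strongest peaks of each replicate, for each class of members, all members and all protein-coding genes. Symbols are replicates, and the horizontal marks with bars are means with SD; cytosolic synthetases lie between 94.1% and 100%, and mitochondrial synthetases between 46.7% and 60%.

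Factors lay below cytosolic synthetases by 26.8, 28.8 and 28.8 percentage points, a mean difference of -28.2 ± 1.18 (SD, n = 3). They lay above mitochondrial synthetases by 7.31, 24.5 and 24.5 points (18.8 ± 9.92, SD, n = 3). Cytosolic synthetases lay above mitochondrial ones by 34.1, 53.3 and 53.3 points (46.9 ± 11.1, SD, n = 3). Each of these 3 differences had the same sign in 3 of 3 replicates, and the two-sided exact sign-flip test gave p = 0.25, before any adjustment over the 3 comparisons, which is the smallest that 3 replicates allow. The replicates share the genes counted, so the spread between them is that of the peak calls alone. When each summit was given to the gene of its nearest TSS only, the difference between factors and cytosolic synthetases shrank to -7.01 points. With all 30000 peaks of each list, mitochondrial synthetases stood above factors in replicate 1, at 86.7% against 82.7%, and below them in the other replicates.

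A stricter reading asked for a promoter summit among the strongest peaks of all 3 replicates. It was met by 55 of 84 members (65.5%), against 35.9% of protein-coding genes: 34 factors, 16 cytosolic synthetases and 5 mitochondrial ones. At the other end, 8 members (9.52%) had no promoter summit in any of the 5 lists, against 36.6% of protein-coding genes. These were the factors eIF2Balpha, eIF3d2, eIF3g2, eIF4E4, eIF4E5, eIF4E7 and eIF4H2 and the synthetase IleRS-m. Of the 25 members that were not bound, 11 had a promoter summit in the pooled list that did not pass the IDR threshold, and 6 had one in replicate lists only.

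The peaks of bound members had median heights close to those of all bound genes. The median IDR signal was 779 for factors, 751 for cytosolic synthetases and 645 for mitochondrial synthetases, against 745 for all bound protein-coding genes. Within the replicate lists, the median percentile of bound factors averaged 90.9 ± 0.794 (SD, n = 3), that of cytosolic synthetases 90.5 ± 0.569 and that of mitochondrial synthetases 88.2 ± 1.99. All bound genes stood at 89.6 ± 0.751. An IDR signal of 1000 or more was found at 19 of the 59 bound members (32.2%) and at 32.1% of all bound protein-coding genes. Of the 59, 9 had more than 1 IDR summit in the window, and the values given are those of the highest.

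**Figure D2:**
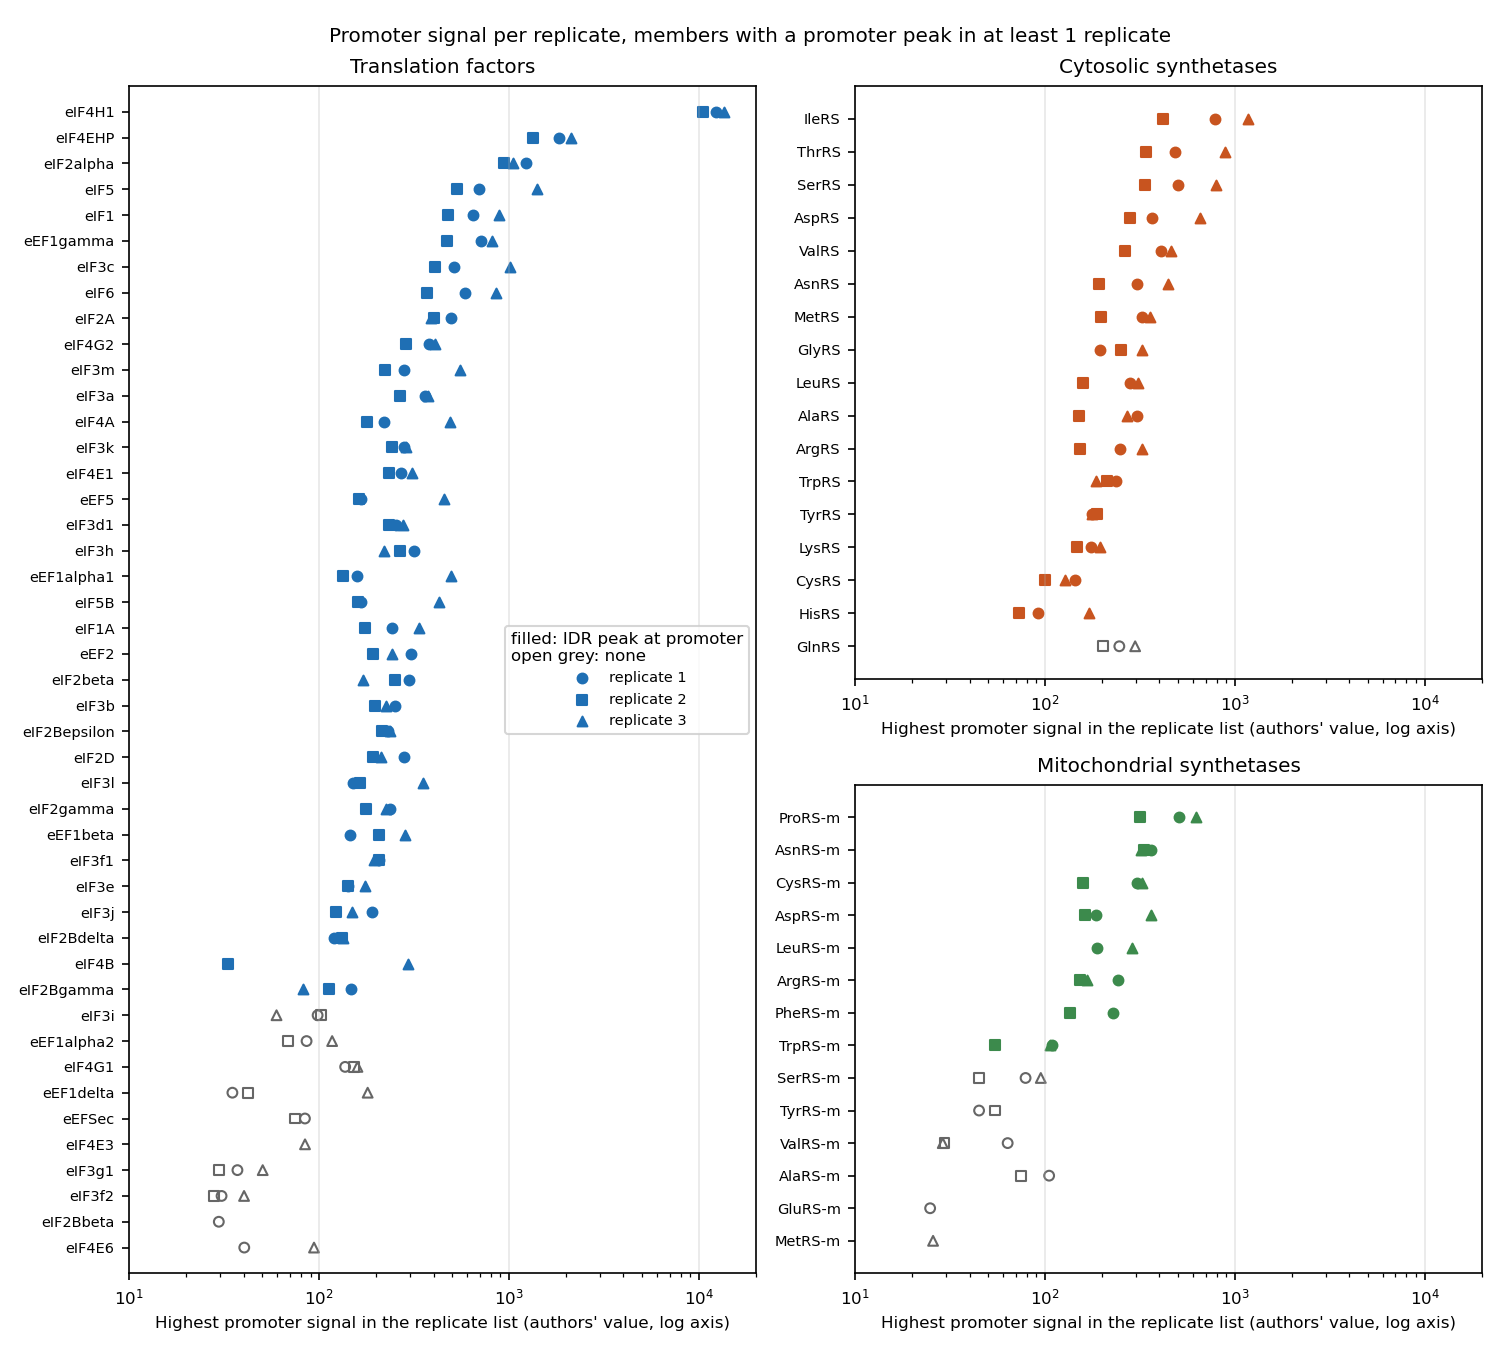
Highest promoter signal (horizontal log axis, authors' value with no stated unit) of each member in each replicate list, for members with a promoter peak in at least 1 replicate. Filled symbols are genes with an IDR promoter peak and open grey symbols genes without; eIF4H1, at 10448 to 13532, stands far to the right of every other member.

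Among the initiation factors, the highest value belonged to eIF4H1, an RNA-binding protein that stimulates the helicase eIF4A. Its promoter peak on X had signals of 12241, 10448 and 13532 in replicates 1, 2 and 3 and of 36185 in the pooled and IDR lists. It stood at the 99.9 percentile of all 3 replicate lists and was the IDR peak of rank 24. The IDR signal was 6.88 times that of the next member. The summit lay 121 bp upstream of the TSS of eIF4H1, inside 500 bp of CG34015 as well, and eIF4H1 had the nearest TSS. In the printed window an ATCGAT core lies to the left of the summit and is not part of a full DREF word.

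The neighbouring gene on the other side of CG34015 is also a member. eIF2alpha encodes the regulatory subunit of the complex that brings initiator tRNA and is phosphorylated under stress. Its own peak had signals of 1225, 938 and 1046 in the replicates and 3208 in the IDR list, with its summit 44 bp upstream of the TSS. The summits of eIF2alpha and eIF4H1 were 1507 bp apart in separate peaks. The eIF2alpha window holds a DREF word, a second ATCGAT core and motif 1.

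eIF4EHP, a cap-binding protein that does not recruit the eIF4G scaffold and represses translation in the fly embryo, had signals of 1833, 1337 and 2111 in the replicates. Its IDR signal was 5263, and all 3 replicates placed the peak at the 99.6 percentile. The summit lay 234 bp upstream of eIF4EHP but nearer to the divergent gene CG18428, so the peak cannot be assigned to either gene alone. In contrast to eIF4H1 and eIF2alpha, its window holds none of the words searched and had a GC content of 18.8% within 50 bp of the summit.

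The 7 initiation factor genes outside eIF2, eIF2B, eIF3 and eIF4 by symbol were all bound, against 42.6% of all protein-coding genes. These 7 genes are eIF1, eIF1A, eIF2A, eIF2D, eIF5, eIF5B and eIF6, with IDR signals from 680 to 2660. eIF5, which triggers GTP hydrolysis on eIF2, had signals of 693, 534 and 1397 in the replicates and 2660 in the IDR list. Its summit lay 371 bp upstream and closer to the TSS of exd, a homeodomain gene, which shares the peak together with CG46312.

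eIF1, a guardian of start codon choice, had signals of 649, 474 and 884 in the replicates and 2016 in the IDR list. That summit lay 265 bp upstream and nearer to the gene of the ribosomal protein RpL28. A second IDR summit, of signal 1412, lay 57 bp from the eIF1 TSS. eIF6, which keeps free large subunits from joining, had signals of 588, 369 and 850 in the replicates and 1782 in the IDR list, at 79 bp upstream of its own TSS. eIF2A, a separate initiator tRNA-binding protein and not a subunit of eIF2, had signals of 497, 404 and 388 and an IDR signal of 1303. All 4 stood above the 92nd percentile in each replicate, with the lowest at 92.8 for eIF2A in replicate 3.

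The eIF2 complex had all 3 of its genes bound, beside 42.6% of all protein-coding genes, with IDR signals from 633 to 3208. eIF2gamma shares its summit with Su(var)3-9, a histone methyltransferase gene annotated at the same start region, and with Set. Of the exchange factor eIF2B, which recharges eIF2 with GTP, 3 of 5 genes were bound, beside the same 42.6%. The gamma, delta and epsilon subunits were bound, at 330 to 683, and the alpha and beta subunits were not. eIF2Bbeta, chosen after its values were seen, lay just outside the window: an IDR summit of signal 6358 stood 682 bp from its TSS, at the promoter of Ugalt. Just inside the window, the highest summit lay farthest from its gene at ValRS, 387 bp upstream.

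For eIF3, the largest initiation complex, 11 of 16 genes were bound, with IDR signals from 454 to 1944. Over all protein-coding genes 42.6% were bound. The bound genes were eIF3a, eIF3b, eIF3c, eIF3d1, eIF3e, eIF3f1, eIF3h, eIF3j, eIF3k, eIF3l and eIF3m. eIF3c, a core subunit that contacts the small ribosomal subunit, was the highest, with 513, 405 and 1016 in the replicates and 1944 in the IDR list. eIF3i, eIF3f2, eIF3d2, eIF3g1 and eIF3g2 were not bound, so the g and i subunits had no bound gene. eIF3i stood just under the limit of the IDR list: its pooled signal was 257, and the lowest IDR signal was 263.

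Of the 13 eIF4 genes, which bind the cap, unwind the leader and bridge to the ribosome, 6 were bound, a share near the 42.6% of all protein-coding genes. They were eIF4H1, eIF4EHP, eIF4G2, eIF4A, eIF4E1 and eIF4B, with IDR signals from 375 to 36185. eIF4G2, an eIF4G paralog known for its role in male meiosis in the fly, had 379, 285 and 405 in the replicates and 1067 in the IDR list. Its summit was equally near to the TSS of CG33111. eIF4G1, the main scaffold and the one member on chromosome 4, had signals of 137, 153 and 159 but a pooled signal of 250, and was not bound. It was among the strongest peaks of each replicate, but the replicate signals came from different positions. The pooled and replicate 3 summits lay 302 bp upstream, and those of replicates 1 and 2 lay 38 and 29 bp upstream.

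Among the elongation factors, eEF1gamma, a subunit of the complex that reloads eEF1alpha with GTP, had signals of 711, 470 and 813 in the replicates and 1988 in the IDR list. The summit lay 42 bp upstream of the TSS, and the window holds a DREF word, a further ATCGAT core and the ZIPIC word. eEF1alpha1, eEF1beta, eEF2 and eEF5 were bound too, with IDR signals from 629 to 808. eEF1alpha2, eEF1delta and eEFSec, the factor for selenocysteine, were not bound. By symbol, 3 of 5 eEF1 genes and 2 of 3 other elongation genes were bound, beside 42.6% of all protein-coding genes.

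Numbered paralogs separated by their number, a pattern described after the values were seen and not tested. In the 7 factor families with numbered genes, 5 of 7 first members were bound and 1 of 11 other members was, beside 42.6% of all protein-coding genes. Among the 34 factors in no such family, 29 were bound. The exceptions were eIF3g1 and eIF4G1 among the first members, which were not bound, and eIF4G2 among the others, which was. eIF4E1, the main cap-binding protein, had signals of 269, 234 and 307 in the replicates. Of its paralogs, eIF4E3 had 84.2 in replicate 3, no promoter peak in replicates 1 and 2 and a pooled signal of 175. eIF4E6 had 40.3 in replicate 1 and 93.9 in replicate 3, and eIF4E4, eIF4E5 and eIF4E7 were in no list. In other families, eEF1alpha2 had 85.8, 68.4 and 117 in the replicates. Its pooled signal of 250 was just under the lowest IDR signal of 263. eIF3f2 had 30.6, 27.8 and 40.2 and a pooled signal of 92.4, and eIF3d2, eIF3g2 and eIF4H2 were in no list. Without the 11 later members, of which 1 was bound, 34 of 41 factors were bound, a share that leaving them out raises by construction.

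Of the cytosolic synthetases, IleRS had the highest peak, with signals of 787, 417 and 1168 in the replicates and 2368 in the IDR list. ThrRS had 483, 340 and 886, with an IDR signal of 1713. SerRS had 500, 335 and 792, with an IDR signal of 1625. All 3 genes share the peak with a divergent neighbour, Hem, Patsas and CG17260 in that order, and in each the synthetase has the nearest TSS.

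AspRS, with 365, 280 and 656 in the replicates and 1290 in the IDR list, had its summit nearer to Nmda1. ValRS, with 407, 265 and 462 and an IDR signal of 1136, had that summit nearer to Kdm4B, a histone demethylase gene. A second IDR summit, of signal 628, lay 185 bp from the ValRS TSS. The other 11 bound cytosolic synthetases had IDR signals from 345 (HisRS) to 937 (AsnRS).

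GlnRS was the one cytosolic synthetase without an IDR summit. It had promoter signals of 246, 201 and 298 in the replicates, at percentiles 88.4, 90.4 and 89.6, close to the median of bound members. The pooled list, however, held no summit within 500 bp of it, and the nearest IDR summit was 3110 bp away. Among 6656 protein-coding genes with a promoter summit in all 3 replicate lists, 18 (0.270%) had none in the pooled list, and GlnRS was the 1 member of these. Its summed replicate signal of 746 was above the lowest IDR signal of 263, so its absence from the IDR list is an absence from the pooled peaks. The cause was not tested.

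Among the mitochondrial synthetases, ProRS-m had the highest peak, with 505, 317 and 626 in the replicates and 1458 in the IDR list. Snup and CG42304 share that peak, but ProRS-m has the nearest TSS, 116 bp away, and the summit window had a GC content of 12.9%. AsnRS-m had 361, 333 and 318 in the replicates and an IDR signal of 1031.

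CysRS-m, with 306, 159 and 322 and an IDR signal of 809, had its summit nearer to O-fut1. AspRS-m had 186, 162 and 360, with an IDR signal of 706 and its own peak. LeuRS-m had 188 in replicate 1, no promoter peak in replicate 2 and 286 in replicate 3, with an IDR signal of 584. PheRS-m, ArgRS-m and TrpRS-m were bound as well, the last at 275, just inside the IDR list.

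Set against each other by amino acid, 12 amino acids had both a cytosolic and a mitochondrial gene. Both genes were bound for 6 of them and the cytosolic gene alone for the other 6. The cytosolic gene was thus bound for all 12, which left no pair with the mitochondrial gene alone. Over all protein-coding genes 42.6% were bound. Where both were bound, the cytosolic gene had the higher IDR signal for Arg, Asp, Leu and Trp. The mitochondrial gene had the higher one for Asn, at 1031 against 937, and for Cys, at 809 against 368.

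The pairs with only the cytosolic gene bound were Ala, Ile, Met, Ser, Tyr and Val. AlaRS had signals of 305, 150 and 271 in the replicates and 724 in the IDR list, and AlaRS-m 105 and 74.7 in replicates 1 and 2 and none in replicate 3. For isoleucine, IleRS-m was in no list, against 787, 417 and 1168 for IleRS. MetRS had 323, 196 and 357 in the replicates and 877 in the IDR list, and MetRS-m had 25.7 in replicate 3 alone. In these 3 pairs the mitochondrial gene lacked a peak in at least 1 replicate.

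SerRS had 500, 335 and 792 in the replicates, and SerRS-m 78.9, 44.8 and 94.9 with a pooled signal of 204. TyrRS had 177, 188 and 176 and an IDR signal of 545, and TyrRS-m had 44.9 and 54.3 in replicates 1 and 2 and none in replicate 3. ValRS had 407, 265 and 462, and ValRS-m 63.5, 29.5 and 28.9. In 11 of the 18 comparisons that 6 pairs and 3 replicates make, both genes had a peak, and the cytosolic gene was the higher in all 11. In the other 7 the mitochondrial gene had no promoter peak, so no values could be compared. This is a direction that the choice of these pairs favours and that was not tested. GluRS-m, the remaining mitochondrial gene that was not bound, has no cytosolic partner under the name rule.

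The classes differed in how their genes sit next to others. A divergent neighbour, here a protein-coding TSS on the other strand within 1000 bp upstream, was found for 15 of 17 cytosolic synthetases (88.2%), 26 of 52 factors (50%) and 7 of 15 mitochondrial synthetases (46.7%), against 36.1% of all protein-coding genes. None of the 17 cytosolic synthetases lay without another protein-coding TSS within 1000 bp, against 57.2% of all protein-coding genes. Over all protein-coding genes, 73.3% of those with a divergent neighbour and 25.3% of those without one were bound. The part of promoter arrangement in the difference between the classes was not tested.

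Read against those backgrounds, 19 of 26 factors with a divergent neighbour were bound (73.1%, 95% Wilson interval 53.9 to 86.3), near the 73.3% of all such genes. Of the 26 factors without one, 16 were bound (61.5%, 42.5 to 77.6), against 25.3% of all such genes. Of the cytosolic synthetases with a divergent neighbour 14 of 15 were bound (93.3%, 70.2 to 98.8), an interval that holds 73.3%. AlaRS and CysRS, the 2 without one, were both bound and had their peaks to themselves. Mitochondrial synthetases were bound in 5 of 7 cases with a divergent neighbour (71.4%, 35.9 to 91.8) and in 3 of 8 without (37.5%, 13.7 to 69.4), and both intervals hold the value of all such genes. The intervals treat genes as independent, though neighbouring genes share peaks, and the shares were not tested against the backgrounds.

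**Figure D3:**
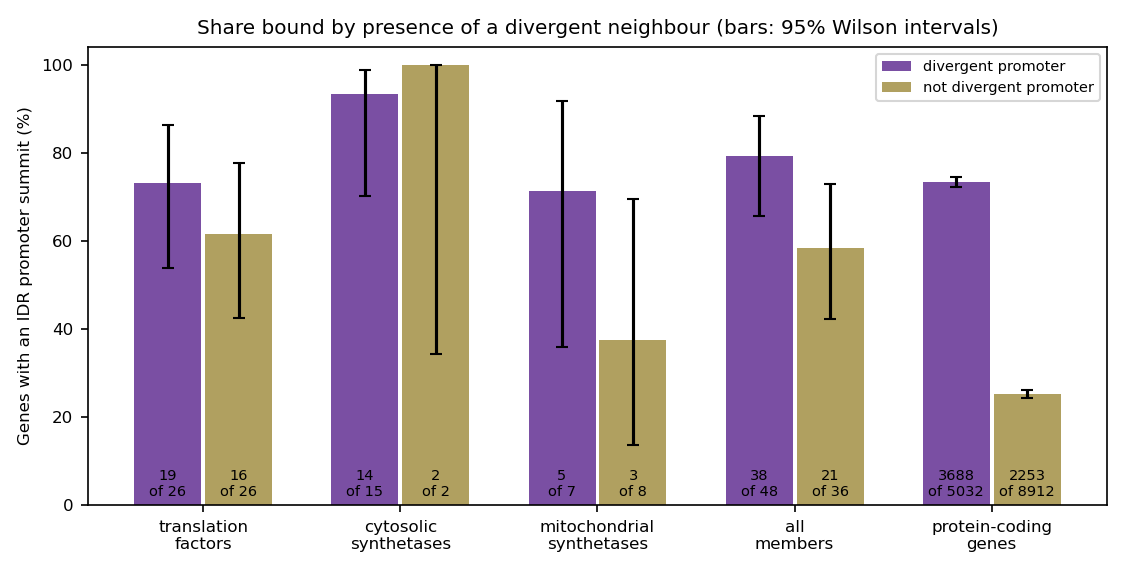
Share of genes with an IDR promoter summit (vertical axis, percent) for genes with and without a divergent neighbour within 1000 bp, in each class. Error bars are 95% Wilson intervals and the numbers at the base are bound genes of all genes; factors without a divergent neighbour (61.5%) lie above all such protein-coding genes (25.3%), while factors with one (73.1%) lie at the level of all such genes (73.3%).

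Of the bound cytosolic synthetases, 14 of 16 (87.5%) shared the summit with another protein-coding gene's promoter window. The same held for 15 of 35 bound factors (42.9%), 5 of 8 bound mitochondrial synthetases (62.5%) and 58.4% of all bound genes. The nearest TSS was the member's own for 27 of 35 factors, 9 of 16 cytosolic and 7 of 8 mitochondrial synthetases, and for 71.6% of all bound genes. These counts use the strongest summit of each gene. With every IDR summit given to the gene or genes of its nearest TSS, 11 of 17 cytosolic synthetases were bound (64.7%). Under that rule, 29 of 52 factors (55.8%), 7 of 15 mitochondrial synthetases (46.7%) and 32.6% of all protein-coding genes were bound.

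Summits lay upstream of the TSS at 56 of 59 bound members (94.9%), against 89.8% of all bound genes. The median position was 63 bp upstream for factors, 135 bp for cytosolic and 56.5 bp for mitochondrial synthetases, and 109 bp for all bound genes. Summits within 100 bp of the TSS were found at 23 of 35 factors, 6 of 16 cytosolic and 6 of 8 mitochondrial synthetases, or 59.3% of bound members against 44.1% of all bound genes. The distance is measured to the nearest annotated start of each gene.

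**Figure D4:**
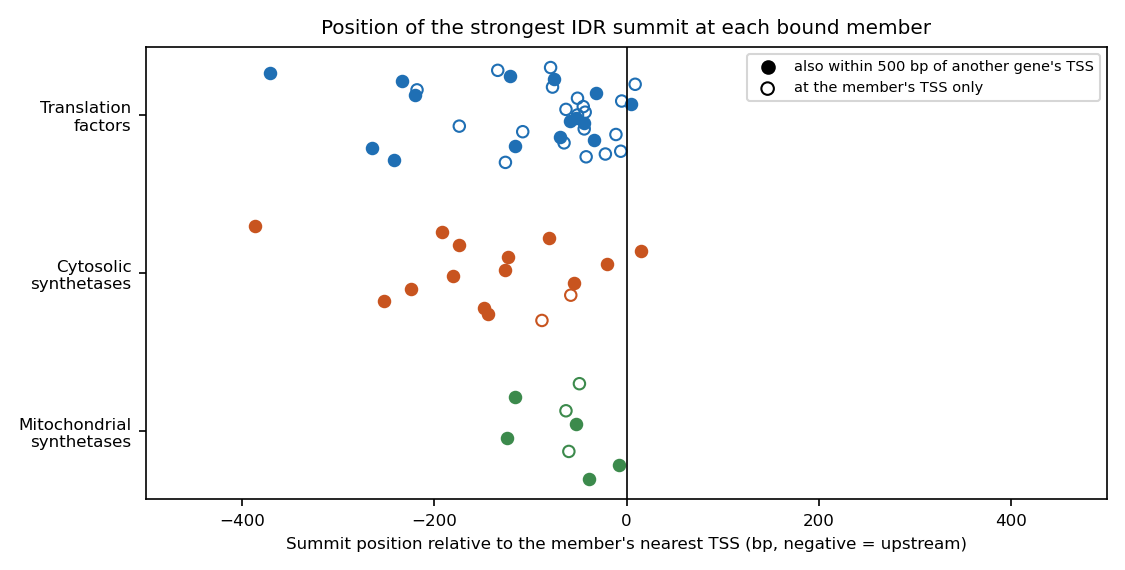
Position of the strongest IDR summit at each bound member relative to its nearest TSS (horizontal axis, bp, negative is upstream), by class, with genes spread vertically within a class for legibility. Filled symbols also lie within 500 bp of another protein-coding gene's TSS; factors have a median of 63 bp upstream and cytosolic synthetases of 135 bp, and 14 of the 16 cytosolic symbols are filled.

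The DREF word lay within 50 bp of the summit at 9 of 59 member peaks (15.3%), against 7.51% of 5113 IDR promoter peaks. The member peaks are the strongest of each gene, while the 5113 include further summits of genes with more than 1. Over all bound genes the strongest alone make 4211 peaks, for which no motif share was computed. These were 8 factors, eIF1, eIF2A, eIF2alpha, eIF2gamma, eIF3a, eIF3f1, eIF5 and eEF1gamma, and 1 cytosolic synthetase, TrpRS, with 0 mitochondrial synthetases. The ATCGAT core alone or within the DREF word lay at 16 member peaks (27.1%), against 16.2%, and 13 of the 16 were factors. The strong peaks of eIF4EHP, IleRS, ThrRS and ProRS-m, printed above, held none of the words searched within 50 bp of the summit. Motif 1 was found at 1 member peak, motif 6 (GGTATTTT) at 0, the ZIPIC word at 2 and the E-box at 1, against 4.11%, 3.93%, 1.82% and 1.08% of IDR promoter peaks.

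In the fixed promoter window from 250 bases before to 50 after the TSS, the DREF word was present in 21 of 84 members (25.0%), against 10.2% of protein-coding genes. Among bound genes the shares were 30.5% of members and 19.6% of protein-coding genes. It was present in 28.8% of factors, 29.4% of cytosolic and 6.67% of mitochondrial synthetases. Motif 1 was present in 9.52% of members and 6.78% of protein-coding genes. Among bound genes the order was the other way, with 10.2% of members and 14.3% of protein-coding genes. It was present in 3 of 35 bound factors (8.57%), 0 of 16 bound cytosolic synthetases and 3 of 8 bound mitochondrial ones, AsnRS-m, AspRS-m and ProRS-m. The TCT initiator, searched on the sense strand as C or T followed by CTTTC or by CTTTT, with its first letter within 5 bp of the TSS, was present in 8 members (9.52%), against 2.20% of protein-coding genes. These were eEF2, eEF5, eIF3f1, eIF3i, eIF3m, eIF4A, ThrRS and TyrRS, of which all but eIF3i were bound. Of all members, with or without the initiator, 70.2% were bound. Of the 307 protein-coding genes with the initiator, 177 were bound.

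Base composition at the summits differed among the classes in the same set of windows. The median GC content within 50 bp of the summit was 44.6% for factors, 28.7% for cytosolic and 39.1% for mitochondrial synthetases, against 34.7% for all IDR promoter peaks. The ranges overlapped widely, from 18.8% to 56.4%, 16.8% to 55.4% and 12.9% to 55.4%. Among the factors of highest signal, eIF4EHP had a GC-poor summit at 18.8% and eIF2alpha a GC-richer one at 49.5%. The 5 cytosolic synthetases of highest signal ranged from 23.8% (ValRS) to 33.7% (AspRS).

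Genes of the same pathway outside the name rule were taken from a list by role, chosen with earlier results of these data known. Of its 34 genes, 33 were annotated under the listed symbol. Of these 33, 31 were bound, beside 42.6% of protein-coding genes, a comparison that was not tested. The 4 synthetase genes that the name rule misses were all bound: GluProRS, the fused enzyme for 2 amino acids, at an IDR signal of 1701, beta-PheRS at 2187, alpha-PheRS at 599 and Slimp, a seryl-tRNA synthetase paralog of mitochondria, at 406. Of the scaffold proteins of the multisynthetase complex, AIMP2 (334) and AIMP3 (302) were bound and AIMP1 was in no list. The 4 termination and recycling genes eRF1 (1228), eRF3 (1585), pix (1288) and HBS1 (1184) were all bound.

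All 14 genes listed for the control of translation were bound, beside 42.6% of all protein-coding genes. Among them, Lk6, the kinase of eIF4E, had an IDR signal of 1478, and Thor, the eIF4E-binding repressor, 370. PEK and Gcn2, the kinases of eIF2alpha, had 1190 and 719. Of the 8 mitochondrial translation factors listed and annotated, 7 were bound, at 290 to 664, with mRRF1 the exception. Among the mitochondrial synthetases the count was 8 of 15. The difference between these lists was not tested.

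By chromosome arm, bound members were 9 of 11 on 2L, 18 of 21 on 2R, 14 of 21 on 3L, 11 of 20 on 3R, 7 of 10 on X and 0 of 1 on chromosome 4. The share of all protein-coding genes bound on these arms ranged from 40.8% on 2L to 48.8% on chromosome 4.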

How the data were processed

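ChIP-seq peak lists from 3 biological replicates of 1 group of embryos were used: 1 list per replicate, a list on the pooled replicates and an IDR list, which the authors cut at a threshold on the irreproducible discovery rate. The lists are on the dm6 assembly, per the text files deposited with them. The sources used here do not name the aligner, the peak caller or the IDR threshold, and the read depth of each replicate is unknown, so the precision it gives cannot be stated. The signal of each peak is a score from the authors' peak caller whose scale is not stated; the deposited signal was therefore compared inside its own list, and percentiles were used to set lists side by side. The exception is the sum over the replicates, set against the IDR signals for GlnRS. For 56 bound members the 3 replicate signals summed to 0.969 to 1.04 times the IDR signal. The authors gave each summit as a distance from the start of its peak.

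Transcription start sites (TSS) and sequences came from RefSeq on dm6, whose annotation has 17796 genes and 23623 TSS. A gene was called bound when an IDR summit lay within 500 bp of any of its protein-coding TSS. To compare replicates, the 9194 peaks of highest signal in each replicate list were kept, as many as the IDR list holds. Shares of bound genes were compared between classes by a two-sided exact sign-flip permutation test over the 3 replicates. Intervals are 95% Wilson intervals and cover counting error only, since neighbouring genes share peaks. Motif words were searched on both strands within 50 bp of each summit and from 250 bases before to 50 after each TSS. The members and lists were chosen with earlier results of these data known. All members could be named as bound or not bound. Values in every list were given for the 10 factors, 5 cytosolic and 5 mitochondrial synthetases of highest signal, and for both genes of an amino acid of which 1 only was bound. The values of eIF2Bbeta, eIF3i, eIF4G1, GlnRS and the numbered families fall outside that rule and were chosen after they were seen. The ATCGAT core was added after seeing the data. The alternatives were windows of 250 and 1000 bp, the 50% of IDR peaks of higher signal, the pooled list, all peaks of a replicate, the nearest TSS only, genes with no other TSS within 1000 bp, and each replicate left out. Added after seeing the data were the strongest peaks of each replicate alone. The assignment of summits to promoters was tested on simulated data. The tools were matplotlib 3.10.9, pandas 2.3.3, scipy 1.17.1, numpy 2.4.6 and Python 3.11.15.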

Additional observations from a re-analysis of the deposited data

How the results depend on the processing

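Of 80 alternative values, 75 kept the direction of their mean and, for counts, stayed within 1.5 times the main value. With genes that have no other protein-coding TSS within 1000 bp, the counts bound fell with the number of genes left: 14 of 24 factors, 3 of 8 mitochondrial synthetases, 17 of 32 members and 2025 of 7982 protein-coding genes. No cytosolic synthetase was left under that rule, so it gave no value for them. For counts, leaving out a replicate asked for an IDR summit and for a promoter summit among the strongest peaks of both remaining replicates. This is stricter than the main rule. It gave 5 to 7 mitochondrial synthetases bound. Without replicate 1 the count was 5 of 15 (33.3%), below the 36.5% of protein-coding genes under the same rule. Without replicate 2 (7 of 15) and without replicate 3 (6 of 15) the share lay above that of protein-coding genes. The p-values of the class differences were 0.25 to 0.5 under all alternatives, including the exact test on 2 replicates, and these designs cannot reach a usual threshold, so they say nothing about stability. With all peaks of each replicate, factors minus mitochondrial synthetases came to 6.50 points on average, but the order turned in replicate 1, with 82.7% of factors and 86.7% of mitochondrial synthetases bound. With the nearest TSS only, cytosolic minus mitochondrial synthetases came to 26.9 points, and with all peaks to 24.4 points. The class differences were taken within each replicate, and no comparison between groups of samples was possible because there was 1 group. Read depth is unknown, so a gene outside a list of 30000 peaks is not shown to be unbound.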

Other observations

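Some factors ranked higher in replicate 3 than in the other replicates, as seen after their values were known. eEF1alpha1 stood at percentiles 80.0, 83.3 and 95.2 in replicates 1, 2 and 3, eEF5 at 81.1, 87.0 and 94.5, and eIF5B at 81.1, 86.8 and 93.8. eIF2beta stood at 91.3, 93.5 and 80.2, the other way round. eIF4B was bound although replicate 1 held no promoter peak for it and replicate 2 placed it at percentile 42.4, while replicate 3 placed it at 89.4.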
